A study of Homo sapiens with 2 samples.

Results

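Antisense long non-coding RNA (lncRNA) genes are transcribed from the DNA strand opposite another gene, called here the sense gene, and carry its name with the suffix AS and a number. The genes described were all lncRNA genes of GENCODE release 44 with such a symbol that had at least 2 CPM (counts scaled to a library total of 1000000) by Illumina, apart from 2 left out by name. They were thus selected on their Illumina level. They were 243 of the 1806 antisense lncRNA genes and of the 58735 genes in the tables. That level is therefore a description. Their Nanopore counts, the counts of their sense genes and their positions were not used.

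Both libraries came from MCF10a-Snail-ER cells, a line of human mammary epithelial cells that stably carries the transcription factor Snail fused to the estrogen receptor, after 1 day in 100 nM tamoxifen to start an epithelial-to-mesenchymal transition. The Nanopore group was 1 direct RNA library, in which native polyadenylated strands are read from their 3′ end, with 403235 counts. The Illumina group was 1 stranded mRNA library of fragmented and amplified cDNA, with 191741714 counts. The design calls the RNA of the libraries matched, and neither an untreated nor a parental library is compared here. With 1 library per platform there was no spread between replicates and no test. Intervals of single genes cover counting error only, and that of the share detected is taken over genes. All 11 basal epithelial markers examined were above 2 CPM by Illumina (33.2 to 7687 CPM) and were counted by Nanopore. So were the 4 mesenchymal markers (24.7 to 1828 CPM by Illumina), and of 6 luminal markers 5 were above 2 CPM and all had a Nanopore count. Among the luminal markers KRT19, at 0.459 CPM by Illumina, had 1 Nanopore count, and EPCAM had 3. The estrogen receptor gene ESR1 had 143 CPM by Illumina and 965 CPM by Nanopore. Whether its counts include reads of the Snail fusion was not tested. Of 5 markers of blood, endothelium and liver, 4 were under 2 CPM and none of the 5 had a Nanopore count.

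A transcript and its antisense partner can share sequence in complementary form where their exons overlap. Some antisense lncRNAs are known to act on the gene opposite them, through its chromatin, its splicing or the stability of its mRNA, and others start from a promoter that both genes share. For a read that lies within the shared bases, only its strand tells which of the genes it came from. The kit of the Illumina library marks strand and direct RNA reads have a strand by nature, but whether either count used it is not given in the sources used here. Where a count does not use strand, reads of a gene and of its antisense partner that lie within the shared bases cannot be told apart.

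The stretches below show what a read of such a pair has to settle. Each is 90 bases of an antisense exon, read on the antisense strand 5′ to 3′ from hg38, for 3 of the pairs with nearly equal Nanopore counts, taken in order of sense count among those examined that have a stretch of this form. Capitals mark 60 bases that are also a coding exon of the sense gene on the other strand, and lower case marks 30 bases of the adjoining sense intron. They lie at chr21:36070345-36070434 (minus strand), chr2:73958116-73958205 (minus) and chr12:120212521-120212610 (plus).
CBR1-AS1: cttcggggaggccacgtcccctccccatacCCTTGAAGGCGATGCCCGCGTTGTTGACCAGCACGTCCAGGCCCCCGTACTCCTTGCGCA
DGUOK-AS1: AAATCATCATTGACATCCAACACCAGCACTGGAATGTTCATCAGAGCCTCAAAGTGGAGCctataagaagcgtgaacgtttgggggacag
PXN-AS1: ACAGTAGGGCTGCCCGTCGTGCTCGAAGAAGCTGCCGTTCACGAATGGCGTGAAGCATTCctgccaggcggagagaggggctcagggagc
In each, the intron bases that touch the capitals read ac or ct, the complements of the GT and AG that bound an intron of the sense gene. A spliced sense mRNA holds the capitals without the lower case, and an antisense transcript of that exon holds both.

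In 9 pairs the genes lie apart. The bases between the start of the sense gene and the start of the antisense gene are shown for 2 pairs that stand back to back, at chr13:45341285-45341344 and chr10:73247256-73247359 on the plus strand of hg38, with 78.3% and 64.4% G or C.
TPT1-AS1: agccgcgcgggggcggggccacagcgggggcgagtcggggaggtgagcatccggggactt
DNAJC9-AS1: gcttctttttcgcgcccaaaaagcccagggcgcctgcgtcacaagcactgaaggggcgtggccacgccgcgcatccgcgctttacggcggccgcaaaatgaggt

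The antisense genes spanned a wide range of levels. Their Illumina values ran from 2.00 to 1194 CPM with a median of 4.74 CPM, 123 genes were under 5 CPM and 6 were at 100 CPM or more. Just inside the limit were ZNF433-AS1 with 384 Illumina and no Nanopore counts, PARD6G-AS1 with 385 and 4, MYCBP2-AS1 with 392 and 11, and ZEB1-AS1 with 394 and 1. Just outside it were PNISR-AS1 with 380 Illumina and 5 Nanopore counts, PABPC4-AS1 with 376 and 24, ZRANB2-AS1 with 375 and 14, and SBNO1-AS1 with 372 and 1. Of the 243 genes, 242 had a sense gene in the tables. HOXA-AS2, named for a gene cluster, had none. Of the sense genes, 239 were protein-coding by member, 2 members were opposite an lncRNA gene and 1 was opposite a pseudogene.

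Nanopore detected 217 of the 243 genes, or 89.3% (95% exact binomial interval over genes 84.7 to 92.9%). Among all 13194 genes of at least 2 CPM by Illumina, 91.6% had a Nanopore count, so the share detected was near that of genes in general. The sets differ in level, with median Illumina counts of 908 for the antisense genes and 4892 for all genes. Detection at equal level was not compared. A gene at 2 CPM would give 0.806 counts at the Nanopore depth, where 1 count stands for 2.48 CPM, and the median antisense gene had 5 counts. Of the antisense genes, 164 had fewer than 10 Nanopore counts.

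Many antisense genes held a larger share of the Nanopore library than of the Illumina library. Together they made up 1.31% of all counts by Nanopore and 0.413% by Illumina. A gene was called higher or lower at a 4-fold ratio between the Nanopore and the Illumina CPM, each with 1 added, a scale that understates differences of rare genes. On it 61 antisense genes (25.1%) were higher by Nanopore, against 4.52% of all 13194 genes. Lower by Nanopore were 16 (6.58%), against 12.1% of all genes. The median log2 ratio was 0.88 (quartiles −0.13 and 2.00) for the antisense genes and −0.59 for all genes. At 2 CPM by Illumina, 5 Nanopore counts are needed for the higher call, and a gene without Nanopore counts needs 3 CPM by Illumina for the lower call.

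The ratio of the antisense genes was near that of other lncRNA genes that share exonic bases with a gene on the opposite strand. Of the antisense genes, 224 shared exonic bases with some opposite-strand gene, and 60 of these (26.8%) were higher by Nanopore with a median log2 ratio of 0.94. Of 536 other lncRNA genes with such an overlap, 27.4% were higher, with a median of 0.88. Without such an overlap, 1 of 19 antisense genes was higher, with a median of 0.14, and among 205 other lncRNA genes 9.27% were higher, with a median of −0.13. Divergent transcripts, lncRNA genes with the suffix DT that start back to back with a neighbour, had 11 of 50 higher with an overlap and 2 of 25 higher without one. With 19 antisense genes in the class without overlap, its share is imprecise.

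**Figure D1:**
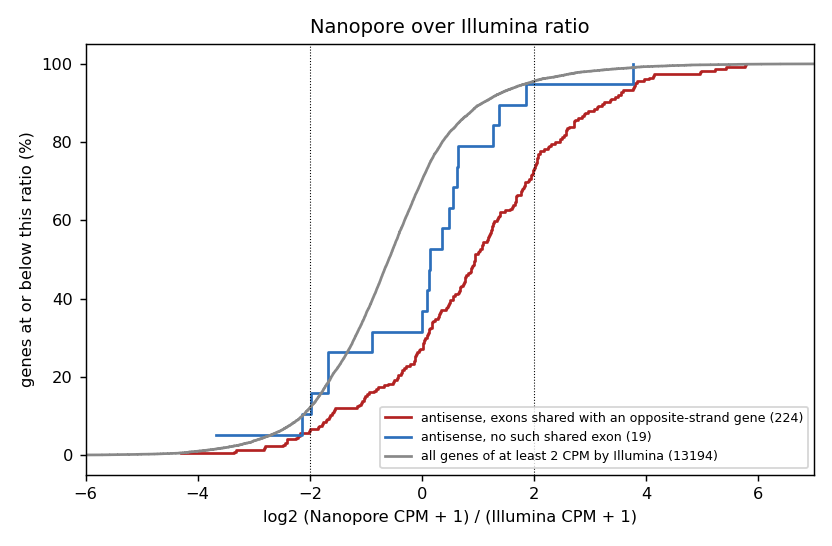
Share of genes (vertical axis, %) at or below each log2 ratio between Nanopore and Illumina CPM, 1 added to both (horizontal axis), for 224 antisense genes that share exonic bases with an opposite-strand gene, 19 that do not and all 13194 genes of at least 2 CPM by Illumina. Dotted lines mark a 4-fold ratio, and the medians are 0.94, 0.14 and −0.59.

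The sense genes had ratios like those of other coding genes. The 238 different sense genes had a median of 8 Nanopore and 6014 Illumina counts and a median log2 ratio of −0.54, near the −0.64 of protein-coding genes of at least 2 CPM by Illumina. Of the 238, 7 (2.94%) were 4-fold higher by Nanopore and 21 (8.82%) were lower, against 2.40% and 11.4% of protein-coding genes. The sense genes were taken at any level, without that minimum, so the sets are not matched. A sense gene under 3 CPM by Illumina cannot be called lower. The counts within pairs were then compared directly, as antisense counts per 100 sense counts in the same library. Over the 211 pairs whose sense gene had counts in both libraries, the median was 83.3 per 100 by Nanopore (quartiles 40.6 and 100) and 14.9 per 100 by Illumina (7.61 and 38.2). The antisense gene was at or above its sense gene in 91 of these pairs by Nanopore and in 20 by Illumina.

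Taking the ratio of these ratios, with 1 CPM added to every value, 102 of 242 pairs (42.1%) leaned at least 4-fold more to the antisense gene by Nanopore and 11 (4.55%) at least 4-fold less. The background for this was 519 other lncRNA genes of at least 2 CPM, each paired with the opposite-strand gene it shares most exonic bases with. Of those, 38.5% leaned at least 4-fold more and 5.39% at least 4-fold less, so the shift within pairs was near that of overlapping lncRNA genes in general.

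Equal counts were common by Nanopore. Of the 111 pairs with at least 10 Nanopore counts for the sense gene, 32 (28.8%) had antisense and sense counts within 10% of the larger, and 14 had identical counts. The background share for Nanopore was 38.5% of 265 pairs of the other lncRNA genes. By Illumina 1 of the 111 pairs was within 10%, HSD17B1-AS1, named for its place in this count, against a background of 1.89%, and none of the 111 was identical. In the 32 pairs the Illumina ratio had a median of 14.1 antisense per 100 sense counts and reached 112, whereas the Nanopore ratio by the terms of the choice lay between 90 and 110.

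**Figure D2:**
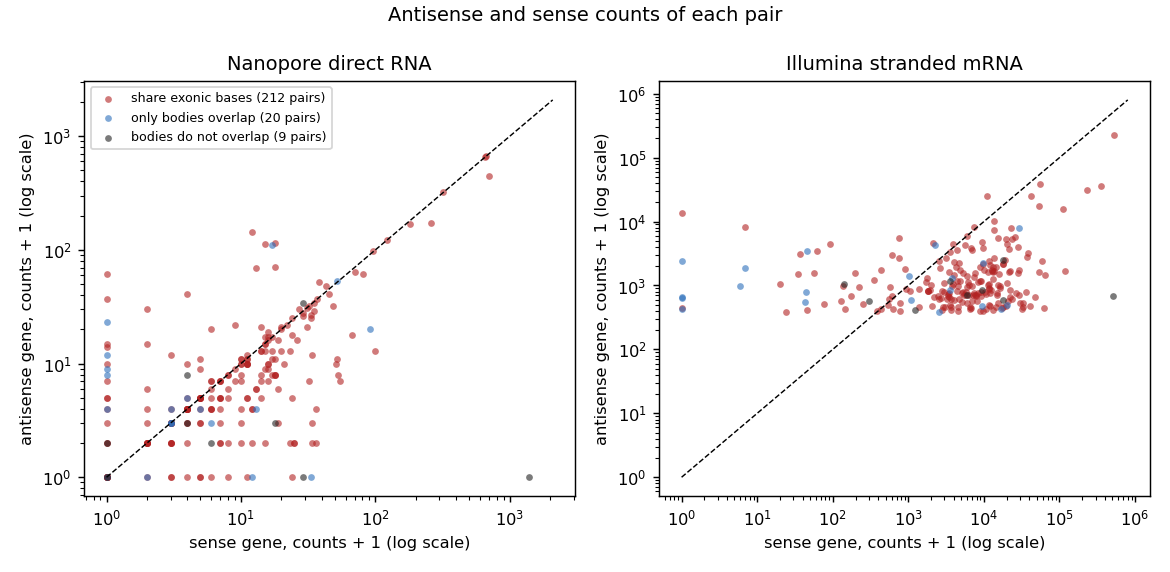
Counts plus 1 of the antisense gene (vertical axis, log scale) against those of its sense gene (horizontal axis, log scale) for 241 pairs by Nanopore (left) and Illumina (right), coloured by position, with a dashed line at equal counts. By Nanopore many pairs that share exonic bases sit on the line, and by Illumina most sit below it. The same-strand pair is not drawn.

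TUBA1B-AS1, opposite the alpha-tubulin gene TUBA1B, was the highest antisense gene by Illumina. It lies on chromosome 12 (49127782 to 49188484, plus strand, hg38) and shares 1571 exonic bases with TUBA1B, 922 of them coding. It had 654 Nanopore counts, 1622 CPM (95% exact Poisson interval 1500 to 1751), and 228846 Illumina counts, 1194 CPM (1189 to 1198). TUBA1B had the same 654 counts by Nanopore and 533152 by Illumina. The pair was therefore equal by Nanopore and at 42.9 antisense per 100 sense counts by Illumina. Alpha-tubulin genes are near-identical in sequence, so the split of reads among them and their partners is uncertain.

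MIF-AS1 (chromosome 22, 23894426 to 23898930, minus strand) is opposite the cytokine gene MIF and shares 687 exonic bases with it. It had 320 Nanopore counts, 794 CPM (709 to 886), and 38905 Illumina counts, 203 CPM (201 to 205). MIF had 320 and 55740. A second opposite-strand gene, ENSG00000251357, also had 320 Nanopore counts, with 15181 by Illumina, so 3 genes of this locus carried 1 Nanopore value while their Illumina values differed.

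RPL30-AS1, opposite a gene of the large ribosomal subunit, had 666 Nanopore and 30770 Illumina counts, where RPL30 had 669 and 227983. PXN-AS1, opposite the focal adhesion adaptor paxillin, had 30 and 17795 counts, where PXN had 30 and 53375. Its CPM ratio between the libraries was 0.80 (0.54 to 1.15), so equality within the pair came without a detectable difference of the antisense gene between libraries. PCBP1-AS1, which spans the gene of an RNA-binding protein, had 96 and 24789 counts against 95 and 42154.

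PPP1R14B-AS1, opposite a phosphatase inhibitor gene, had 167 Nanopore and 1671 Illumina counts, and PPP1R14B had 181 and 22021. H1-10-AS1, opposite a linker histone gene, had 63 and 773 against 69 and 7355. MRPL20-AS1, opposite a mitochondrial ribosomal protein gene, had 40 and 2481 against 44 and 19150. CBR1-AS1, opposite a carbonyl reductase gene, had 36 and 2457 against 36 and 11665. PSMA3-AS1, opposite a proteasome subunit gene, had 52 and 7879 against 51 and 29394, and it was the only one of the 32 that shares no exonic base with its sense gene in this annotation.

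**Figure D3:**
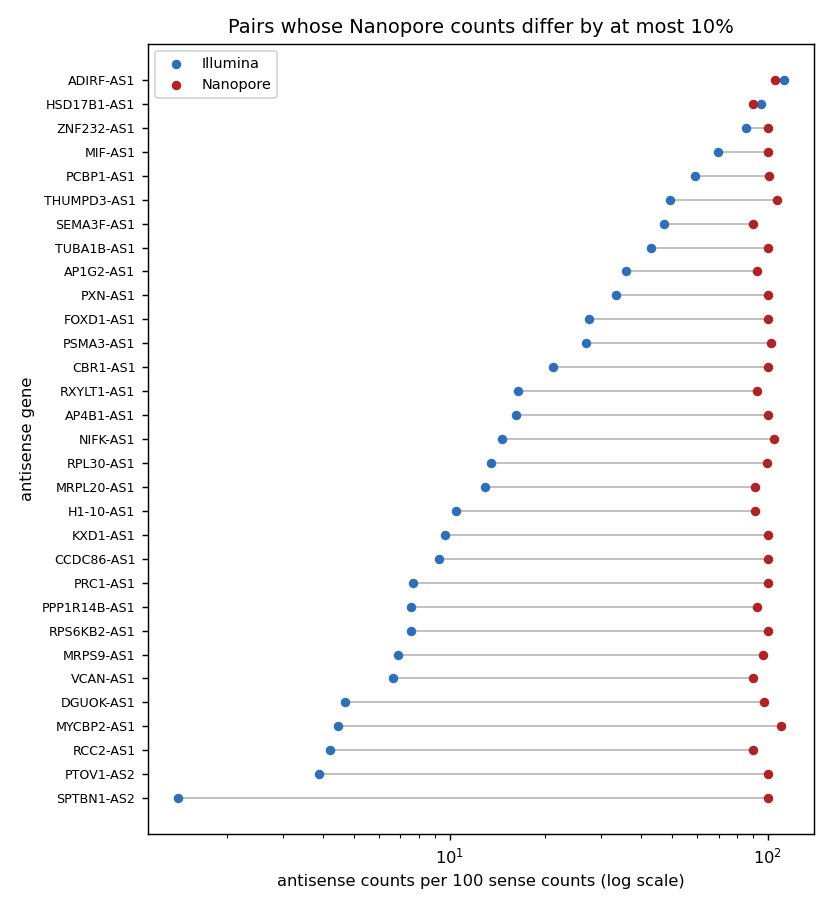
Antisense counts per 100 sense counts (horizontal axis, log scale) by Illumina (blue) and Nanopore (red) for 31 of the 32 pairs with at least 10 sense Nanopore counts whose Nanopore counts lie within 10%. The red points lie between 90 and 110 because they chose the pairs, while the blue points run from 1.41 to 112.

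In several cases where the antisense gene stood far above its named sense gene by Nanopore, its count was close to that of another opposite-strand gene. TNS2-AS1 had 142 Nanopore counts and TNS2 had 11, while EIF4B, a translation initiation factor gene that shares 747 exonic bases with TNS2-AS1, had 142. Its Illumina count was 7492, against 13454 for TNS2 and 112677 for EIF4B. ELF3-AS1 had 61 Nanopore counts, ELF3, an epithelial transcription factor gene, had 0, and RNPEP, an aminopeptidase gene that shares 636 exonic bases with it, had 61. By Illumina these were 8203, 6 and 44589. RUSC1-AS1 had 114 counts against 17 for RUSC1 and 115 for FDPS, an enzyme gene of isoprenoid synthesis, where Illumina had 25341, 10973 and 118225.

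Further genes stood beside such a partner. IDI2-AS1 had 40 Nanopore counts, IDI2 had 3 and IDI1, another isoprenoid enzyme gene, had 41. SDCBP2-AS1 (chromosome 20, 1325400 to 1378735, plus strand) had the highest ratio of all, a log2 value of 5.78, with 112 Nanopore and 783 Illumina counts. SDCBP2 had 14 and 5755 counts, and FKBP1A, a prolyl isomerase gene that shares 515 exonic bases with it, had 103 and 43112. CNPY2-AS1 had 51 and 458 counts, against 37 and 17957 for CNPY2 and 53 and 14978 for ENSG00000144785, which shares 496 exonic bases with it. MYG1-AS1, with a log2 ratio of 5.76, had 70 and 425 counts and was not within 10% of a partner. MYG1 had 17 and 6572, and the prefoldin subunit gene PFDN5 had 58 and 41507. Of the 79 antisense genes with at least 10 Nanopore counts, 29 were within 10% of a named sense gene that shares exonic bases with them, 12 of another opposite-strand gene that does, and 38 of neither. A pair without shared exonic bases, such as PSMA3-AS1 and PSMA3, counted among the 38.

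Among the other high ratios, DGUOK-AS1, opposite a mitochondrial nucleoside kinase gene, had 33 Nanopore and 709 Illumina counts against 34 and 15107. LAMTOR5-AS1, opposite a gene of the lysosomal Ragulator complex, had 47 and 1103 against 42 and 20490. NDUFB2-AS1, opposite a respiratory chain subunit gene, had 61 and 1561 against 80 and 28660. COA6-AS1, opposite a cytochrome oxidase assembly gene, had 31 and 765 against 47 and 14965. SLC25A5-AS1, opposite an ADP/ATP carrier gene, had 170 and 15530 against 260 and 110818. In each of these 5 pairs the Nanopore ratio was at least 65 per 100 and the Illumina ratio was under 15 per 100. That follows in part from the choice. DGUOK-AS1, LAMTOR5-AS1, NDUFB2-AS1 and COA6-AS1 were named for their high ratio between the libraries, and SLC25A5-AS1 for its high counts.

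The counts were then set beside the position of the pair. Exons of the antisense and sense genes shared bases in 212 pairs, only the bodies overlapped in 20, the bodies lay apart in 9, and 1 pair was on the same strand. The median log2 Nanopore over Illumina ratio of the antisense gene was 0.94, 0.59 and 0.13 in the first 3 classes. The third value rests on 9 genes that ran from −2.18 to 2.54, and neither its sign nor its order held. It became −0.73 with Illumina counts divided by length, −0.89 at a minimum of 1 CPM and 1.38 at a minimum of 5 CPM, where the first class had 0.80. Across the 212 pairs that share exonic bases, Spearman's rho between antisense and sense counts was 0.596 by Nanopore and 0.217 by Illumina, a description over genes that share a library and its depth. In the 30 pairs that share none, rho was −0.0042 by Nanopore and 0.025 by Illumina. Between the libraries, rho of the antisense counts was 0.412 with a shared exon and 0.539 without, and rho of the sense counts was 0.840 and 0.850.

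The share of the antisense gene that overlaps opposite-strand exons went with the ratio less clearly. Among the 212 pairs, the median log2 ratio was 0.67 for 114 genes with under 25% of their exonic bases in such exons, 1.16 for 81 genes with 25 to 75%, and 1.09 for 17 genes with over 75%. These classes also differ in length, with median exonic lengths of 4725, 2902 and 553 bases. The shares called higher were 24.6%, 27.2% and 35.3%.

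The place of the overlap along the sense gene went with the Nanopore ratio. For the 138 pairs that share exonic bases and have at least 5 sense Nanopore counts, the distance was taken as the exonic bases between the shared stretch and the 3′ end of the sense gene, in bins chosen after the data were seen. The median was 100 antisense per 100 sense counts for 18 pairs that share the last base and for 14 pairs at 1 to 500 bases. It was 92.3 for 23 pairs at over 500 and up to 1500 bases, 62.5 for 37 pairs at over 1500 and up to 4000 bases and 30.3 for 46 pairs farther away. The Illumina medians in the same order were 22.6, 11.3, 13.9, 9.80 and 8.64. The Nanopore medians fell from bin to bin beyond 500 bases, and the Illumina medians were lower in the last bin than in the first. The first 2 bins hold fewer than 20 pairs each. With at least 10 sense counts the Nanopore medians were 100, 98.5, 91.3, 64.1 and 27.3. The shared stretch was also shorter far from the end, with medians of 765 bases in the first bin and 344 in the last. The part of this difference in length was not tested.

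**Figure D4:**
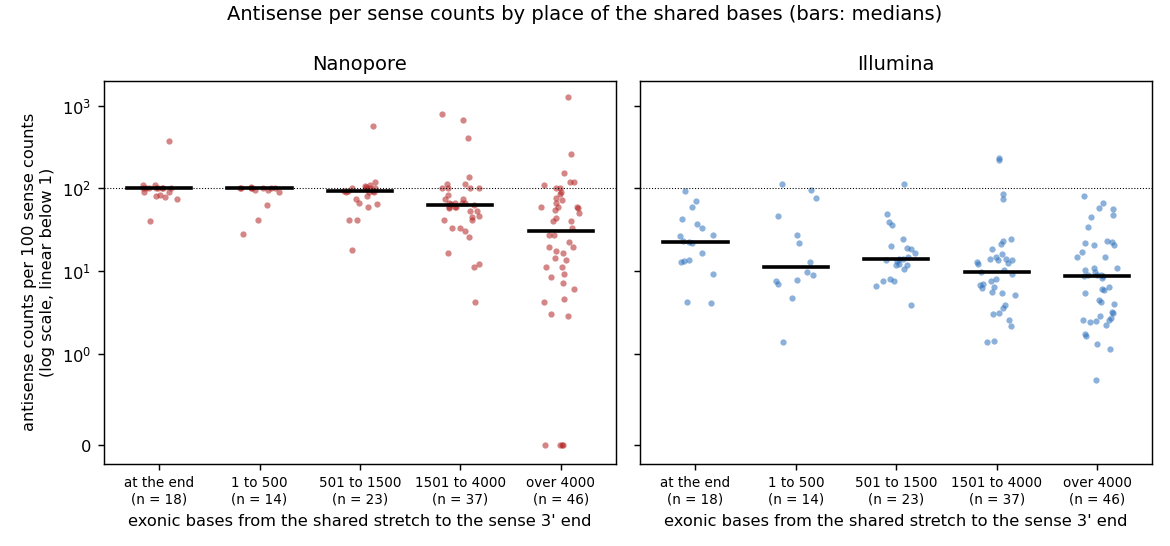
Antisense counts per 100 sense counts (vertical axis, log scale, linear below 1) by the exonic bases between the shared stretch and the sense 3′ end (horizontal axis, 5 bins), for 138 pairs with at least 5 sense Nanopore counts, by Nanopore (left) and Illumina (right). Points are pairs, bars are medians and the dotted line is at 100, which the Nanopore medians reach in the first 2 bins and leave to 30.3 in the last.

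The lowest Nanopore ratios lay far from the end. Under 15 antisense per 100 sense Nanopore counts, a limit not set in advance, were found in 19 of the 138 pairs. Above that limit, some low ratios lay near the end. KRT10-AS1 had 9 Nanopore counts against 50, or 18 per 100, at 700 bases. TRIM7-AS2 had 5 against 18, or 27.8 per 100, at 310 bases. The shared stretch of the 19 lay 3065 to 24097 exonic bases from the sense 3′ end. In 15 of the 19 the antisense gene started inside the sense gene and ran out past its start. That arrangement was also common in general, with 89 of the 212 pairs that share exonic bases. It held for 47 of the 101 such pairs with at least 10 sense counts. Its share among the 138 was not taken, and arrangement and distance were not separated. WAC-AS1 (chromosome 10, 28522652 to 28533066, minus strand) was one of the 15. It had 1 Nanopore and 4470 Illumina counts against 35 and 20252 for WAC, and lay 12388 bases from the end of WAC. SLC16A1-AS1, opposite a lactate transporter gene, had 0 and 1775 counts against 23 and 29450, at 6116 bases. GABPB1-AS1, opposite a subunit gene of the GA-binding protein, had the lowest log2 ratio, −4.30, with 0 and 3596 counts against 5 and 4446, at 5256 bases. With no Nanopore count its level was below 9.15 CPM (upper 95% exact Poisson bound), against 18.8 CPM by Illumina.

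By arrangement, the median Nanopore ratio of pairs that share exonic bases and have sense counts in both libraries was 100 per 100 in 56 tail-to-tail pairs, which overlap at their ends. It was 61.3 in 82 head-to-head pairs, whose antisense gene starts inside the sense gene and runs past its start, 60 in 38 antisense genes contained in the sense gene and 109 in 16 that contain it. The Illumina medians were 22.1, 14.7, 8.72 and 31.6. Identical counts above 0 occurred in 26 of 63 tail-to-tail pairs and 10 of 89 head-to-head pairs, most of them at few counts.

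Among the 30 pairs without a shared exonic base, 5 antisense genes were 4-fold higher by Nanopore and 4 were lower. Over all genes of at least 2 CPM by Illumina, 4.52% were higher and 12.1% were lower. The lower calls were thus near the general share, and with 30 pairs both shares are imprecise. TPT1-AS1 starts 61 bases from the start of TPT1, a gene of a highly abundant cytosolic protein, and runs away from it. It had no Nanopore count and 676 Illumina counts, while TPT1 had 1391 and 512527. The absence of TPT1-AS1 is not informative by itself, since 3.53 CPM by Illumina is under the 7.44 CPM that 3 Nanopore counts stand for. SH3PXD2A-AS1, within the body of a podosome scaffold gene but outside its exons, had 0 and 2240 counts against 11 and 9626. RALY-AS1 had 19 and 489 counts against 90 and 20409, a CPM ratio of 18.5 (11.0 to 29.2). Of the 5 higher genes it was the one that shares no exonic base with any opposite-strand gene in this annotation. The others were PITX1-AS1, DNAJC9-AS1, CCDC144NL-AS1 and GPRC5D-AS1, with log2 ratios of 3.55, 2.54, 2.05 and 2.02. Each shares exonic bases with an opposite-strand gene other than its named sense gene. PITX1-AS1 had 109 Nanopore counts and MACROH2A1 97. CCDC144NL-AS1 had 22 and USP22 22, and GPRC5D-AS1 had 8 and HEBP1 8.

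DNAJC9-AS1 names 2 genes in the annotation. ENSG00000236756, which starts 105 bases from DNAJC9, had 33 Nanopore and 2546 Illumina counts. DNAJC9, a chaperone gene, had 28 and 17855, and MRPS16, a mitochondrial ribosomal protein gene that shares 395 exonic bases with the antisense gene, had 33 and 21372. ENSG00000227540 had 0 and 584 counts. HOXA-AS2, of the homeobox cluster, had 0 and 875.

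A few antisense genes were counted far above their sense gene by Illumina, beside a sense gene with few counts. CKMT2-AS1 had 2 Nanopore and 981 Illumina counts against 2 and 5 for CKMT2, a mitochondrial creatine kinase gene. PRKG1-AS1 had 29 and 3459 against 1 and 61 for PRKG1, but DKK1, a Wnt inhibitor gene that shares 227 exonic bases with it, had 52 and 22016. FGD5-AS1 had 13 and 13406 counts, FGD5 had none in either library, and NR2C2, which shares 155 exonic bases, had 24 and 8207. For ZFHX2-AS1 the values were 11 and 3488 against 0 and 44, for NUTM2A-AS1 9 and 3135 against 0 and 36, and for NUTM2B-AS1 7 and 1862 against 0 and 6. ZFHX2-AS1 also shares 1577 exonic bases with THTPA, a gene on its own strand that had 11 and 3152. Reads within those bases cannot be assigned to either gene by strand. NUTM2A and NUTM2B are near-identical copies, so counts of their partners are uncertain.

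Genes linked to the transition or to epithelial and matrix identity were looked up among the antisense genes, some of them after values were seen. VIM-AS1 (chromosome 10, 17214239 to 17230018, minus strand) is opposite the gene of vimentin, the intermediate filament protein of mesenchymal cells, and shares 656 exonic bases with it. It had 449 Nanopore counts, 1113 CPM (1013 to 1221), and 35695 Illumina counts, 186 CPM (184 to 188), a CPM ratio of 5.98 (5.44 to 6.57). VIM had 700 and 350409, so the pair stood at 64.1 per 100 by Nanopore and 10.2 per 100 by Illumina. ZEB1-AS1, opposite an EMT transcription factor gene, had 1 and 394 counts against 2 and 766, too few by Nanopore for a comparison.

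CDH3-AS1, opposite the P-cadherin gene, had 12 Nanopore and 770 Illumina counts against 22 and 26801. THBS1-AS1, opposite the thrombospondin-1 gene, had 7 and 451 against 52 and 63050. VCAN-AS1, opposite the gene of the matrix proteoglycan versican, had 9 and 1019 against 10 and 15377. ACTA2-AS1, opposite the smooth muscle actin gene, had 4 and 608 against 10 and 3672, a CPM ratio of 3.13 whose interval of 0.85 to 8.05 includes 1. The 4 sense genes were each above their antisense partner in both libraries, by more in Illumina.

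A list of 38 lncRNA genes was drawn up from general knowledge, with earlier results of these data known. KRT7-AS and ITGB1-DT, which are on it, lack the suffix AS with a number and could not be among the 243. Of the 38, 18 were among the 243. VIM-AS1, TMEM147-AS1 and LAMTOR5-AS1 were 4-fold higher by Nanopore, WAC-AS1 and HOXA-AS2 were lower, and 13 were neither. The lower call of HOXA-AS2 is weak, since the interval of its CPM ratio, 0 to 2.01, includes 1. The median log2 ratio of the 18 was −0.30, against 0.88 for the 243 and −0.59 for all genes. TMPO-AS1, opposite a nuclear lamina protein gene, had 10 and 3184 counts against 51 and 38805. NNT-AS1, opposite a mitochondrial transhydrogenase gene, had 2 and 2141 against 18 and 9628. MCM3AP-AS1 had 9 and 5244 against 9 and 19436, TTN-AS1, opposite the titin gene, had 4 and 1303 against 4 and 1777, and FAM83A-AS1 had 1 and 664 against 24 and 22310.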

How the data were processed

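A count table of each platform was used. As deposited by the authors, it lists raw counts, whole numbers with no scaling, for 58735 Ensembl identifiers. Per the submitters' processing notes, hg38, minimap2 (2.11-r797), HISAT2 (2.1.0) and featureCounts were used. The strand setting, the annotation release and the treatment of reads that overlap several genes are not given in the sources used here, nor is the meaning of a suffix in the Nanopore column's name. They bear on every pair of overlapping genes.

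Names, positions and exons came from GENCODE release 44 on hg38 and matched 58207 identifiers. SLC9A3R1-AS1 was paired with its sense gene through a RefSeq synonym. Overlaps use the union of annotated exons, which includes exons of transcripts that may not be present in these cells. CPM is the count over the column total times 1000000. Ratios add 1 CPM. Calls need 4-fold, with no test. Genes named were the extremes of either count, of the ratio between libraries and of the ratio within pairs, the near-equal pairs, the genes at the threshold and a fixed list. A few others were chosen after their values were seen. The members and lists were chosen with earlier results of these data known. Intervals (95%) of single genes are exact Poisson or conditional binomial (scipy 1.17.1) and cover counting error only, since amplified reads are not independent molecules. The interval of the share detected is exact binomial over genes. Those used to judge medians come from the ranks of the values over genes. Both take genes as independent and measure neither counting error nor spread between samples. The calls were tested on simulated data. TMM factors came from edgeR 4.0.16 in R 4.3.3. Other pseudocounts, scalings, depths and limits were tried. The values of 1 pair are included in the counts and medians but are not reported here.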

Additional observations from a re-analysis of the deposited data

How the results depend on the processing

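Of 115 values computed for 18 results under other settings, 83 stayed within 1.5 times for a count, or within the 95% interval for a median or share, and 32 did not. Those intervals are taken over genes and serve only as a yardstick. The median for the 9 pairs whose bodies lie apart, 0.13, changed sign to −0.73 in TPM and −0.89 at a minimum of 1 CPM, and was 1.38 at a minimum of 5 CPM. No other median of the log2 ratio changed sign. The 61 higher calls became 40 with a pseudocount of 5 CPM, 99 and 27 with a minimum of 1 and 5 CPM (358 and 120 genes) and 112 at 2-fold. The 16 lower calls became 28 and 1 with pseudocounts of 0.1 and 5 CPM, 7 at a minimum of 5 CPM, 39 at 2-fold, 5 where the exact interval of the ratio also had to exclude 1, and 1 among the 82 genes with at least 10 counts or 10 expected. The median log2 ratio of 0.88 became 0.60 with 5 CPM added and 2.52 among those 82, a filter that keeps genes through their Nanopore counts. For pairs that share exonic bases it became 0.67 with 5 CPM added.

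Pairs leaning 4-fold more to the antisense gene by Nanopore, 102, became 66 with 5 CPM added, 158 and 50 at minima of 1 and 5 CPM, and 55 under the filter on 10 counts. Those leaning less, 11, became 25 and 2 with 0.1 and 5 CPM added, 21 with Illumina counts divided by length (TPM), 19 with thinned Illumina counts and 0 under that filter. The Illumina median of 14.9 antisense per 100 sense counts became 29.1 in TPM, and 11.8 and 24.0 at minima of 1 and 5 CPM. Detection became 84.6% and 95.8% at those minima, and 69.5% with at least 3 counts. Near-equal Nanopore pairs, 32, became 16 with at least 20 sense counts. For Illumina the 1 pair became 4 at a 20% tolerance, and 2 and 0 with at least 5 and 20 sense counts.

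TMM and median-ratio scaling raised Nanopore by 0.088 and 0.13 on the log2 scale, and the median over all genes from −0.59 to −0.51 and −0.47. TPM moved that median to 0.19 and the antisense median to 1.00, with 31.7% of antisense genes and 7.65% of all genes higher. Leaving out the 43 antisense genes that share exonic bases with another gene on their own strand, added after seeing the data, moved none of the 7 values recomputed beyond those limits. No paired analysis was possible because each platform has 1 library. The Nanopore depth limits all values under about 10 counts.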
